A study of Mus musculus with 2 samples.

Results

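The cadherin superfamily of adhesion genes was described in cells of the mouse incisor pulp that had recently replicated their DNA, by 2 histone marks. The members are the protein-coding genes of the mm10 RefSeq annotation whose symbol starts with Pcdh, or is Cdh followed by digits only, on the autosomes and X. They number 92 of 21627 genes: 57 protocadherins of the Pcdha, Pcdhb and Pcdhg clusters (14, 22 and 21 genes), 12 other protocadherins and 23 cadherins, grouped by textbook class into 5 of type I, 13 of type II and 5 atypical ones. The rule reads gene symbols and biotype. Pulp came from CD1 pups aged 5 days that had received EdU, a thymidine analogue incorporated during DNA replication, at 3.3 µg per g body weight 24 h before. Cells were fixed, stained for EdU and sorted, and EdU-positive cells went into chromatin immunoprecipitation. Antibodies against H3K4me3, found at promoters that are in use or held ready, and against H3K27me3, which Polycomb repressive complex 2 deposits, gave 1 library each. Both libraries came from the same strain, age, dose and time. EdU marks any cell that passed through S phase, so the sort does not select a cell type, and the sources used here do not say whether animals were pooled. With 1 library per mark no difference has a replicate check, and none was tested. The deposited values are regions of enriched signal, called islands, with their coordinates and the height of their summit in the authors' units. The depth of the libraries is unknown, so a gene without an island is one where none was called. A gene counts as marked at an end where an island reaches within 1 kb of its annotated start or end. The strand of 13 members outside the clusters was not in the tables used, and their marked end is not called a start.

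Cadherins are membrane proteins whose extracellular repeats bind the same or a related cadherin on a neighbouring cell in the presence of calcium. Those of type I and type II, the classical cadherins, are tied to actin through catenins, and which of them a cell makes helps to sort tissues: Cdh1 (E-cadherin) is typical of epithelia, Cdh2 (N-cadherin) and Cdh11 (OB-cadherin) of mesenchyme, Cdh5 (VE-cadherin) of endothelium. Protocadherins form the largest group and are known best from the nervous system. In the Pcdha and Pcdhg clusters each gene has its own promoter and large first exon, spliced to last exons that the whole cluster shares. Pcdhb genes are made of a single coding exon. A neuron uses a few of the variable promoters, while the C-type genes at the end of the Pcdha and Pcdhg clusters are used more broadly.

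Promoter sequences came from a RefSeq table of build GRCm38.p6, the assembly called mm10, that gives 250 bases before and 50 after a start. It matched 22 of the 92 members, 9 protocadherins and 13 cadherins, none of them in the clusters. It held 25 promoters for them, more than 1 for 2 of the genes, and 1 per gene was used. To show the sequences on which the marks lay, the 250 bases before the start are printed, 5′ to 3′ in the direction of the gene and with CpG dinucleotides in capitals, for the member with the highest summit in each state at that start, and for the longest gene with no island there. Cdh22 (chr2:165234738-165234987, minus strand) carried both marks and the highest H3K4me3 summit of these members. Pcdh17 (chr14:84443313-84443562, plus strand) carried both and the highest H3K27me3 summit. Cdh24 (chr14:54641365-54641614, minus strand) carried H3K4me3 only, Cdh8 (chr8:99416472-99416721, minus strand) H3K27me3 only and Cdh9 (chr15:16728665-16728914, plus strand) neither. These stretches held 30, 21, 22, 20 and 6 CpG, in that order.
Cdh22: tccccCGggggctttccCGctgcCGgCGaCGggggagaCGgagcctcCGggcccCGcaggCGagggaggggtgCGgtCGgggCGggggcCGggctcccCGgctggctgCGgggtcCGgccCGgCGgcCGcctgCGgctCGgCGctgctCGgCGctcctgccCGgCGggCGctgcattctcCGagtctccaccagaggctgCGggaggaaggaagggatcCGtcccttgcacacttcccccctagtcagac
Pcdh17: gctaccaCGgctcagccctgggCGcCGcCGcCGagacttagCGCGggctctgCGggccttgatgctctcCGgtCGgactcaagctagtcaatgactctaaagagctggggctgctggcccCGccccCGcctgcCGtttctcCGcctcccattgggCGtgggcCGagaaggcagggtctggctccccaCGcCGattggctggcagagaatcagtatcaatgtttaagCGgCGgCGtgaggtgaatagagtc
Cdh24: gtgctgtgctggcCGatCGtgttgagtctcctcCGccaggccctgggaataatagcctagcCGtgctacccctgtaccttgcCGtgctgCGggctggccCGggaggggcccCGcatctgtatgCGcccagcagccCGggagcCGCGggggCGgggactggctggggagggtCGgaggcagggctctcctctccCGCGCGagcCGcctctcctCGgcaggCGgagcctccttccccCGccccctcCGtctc
Cdh8: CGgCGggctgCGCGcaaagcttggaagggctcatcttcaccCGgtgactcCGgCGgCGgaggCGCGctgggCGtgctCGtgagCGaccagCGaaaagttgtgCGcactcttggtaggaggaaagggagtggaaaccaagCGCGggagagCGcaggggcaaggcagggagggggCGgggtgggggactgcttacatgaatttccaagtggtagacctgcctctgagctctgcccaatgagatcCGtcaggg
Cdh9: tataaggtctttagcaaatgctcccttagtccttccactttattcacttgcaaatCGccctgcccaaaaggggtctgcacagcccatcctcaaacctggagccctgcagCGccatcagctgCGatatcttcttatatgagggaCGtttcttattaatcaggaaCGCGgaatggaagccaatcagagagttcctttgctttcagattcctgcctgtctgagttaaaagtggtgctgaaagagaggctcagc

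Over the whole table window, promoters of members that carried H3K4me3 within 1 kb of their start held more CpG than those without it. The 14 promoters with H3K4me3 had a median of 18 CpG (4 to 38) and the 8 without it a median of 7.5 (2 to 21). Over all 17273 promoters the medians were 22 and 3, so the order was the same there. H3K4me3 was called at 58.4% of all table starts and H3K27me3 at 18.6%, and each at 14 of the 22 members' starts. Among the members, CpG count did not separate the states. Cdh8 and Cdh20 (18 CpG) carried H3K27me3 without H3K4me3, whereas Pcdh20 carried H3K4me3 on 4 CpG. The letters CGCT, the core of an element known from promoters of clustered protocadherins, were searched on both strands. They stood in 21 of the 22 members' promoters and in 69.5% of all promoters. Where the start carried H3K4me3 this was 14 of 14 members, against 90.9% of all such promoters. Without H3K4me3 it was 7 of 8 members, against 39.4%. CGCT itself contains a CpG, and these 8 members had a median of 7.5 CpG, against 3 over all such promoters. Whether CGCT was more frequent than the CpG count gives was not tested. Clustered promoters were not analysed here.

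**Figure D1:**
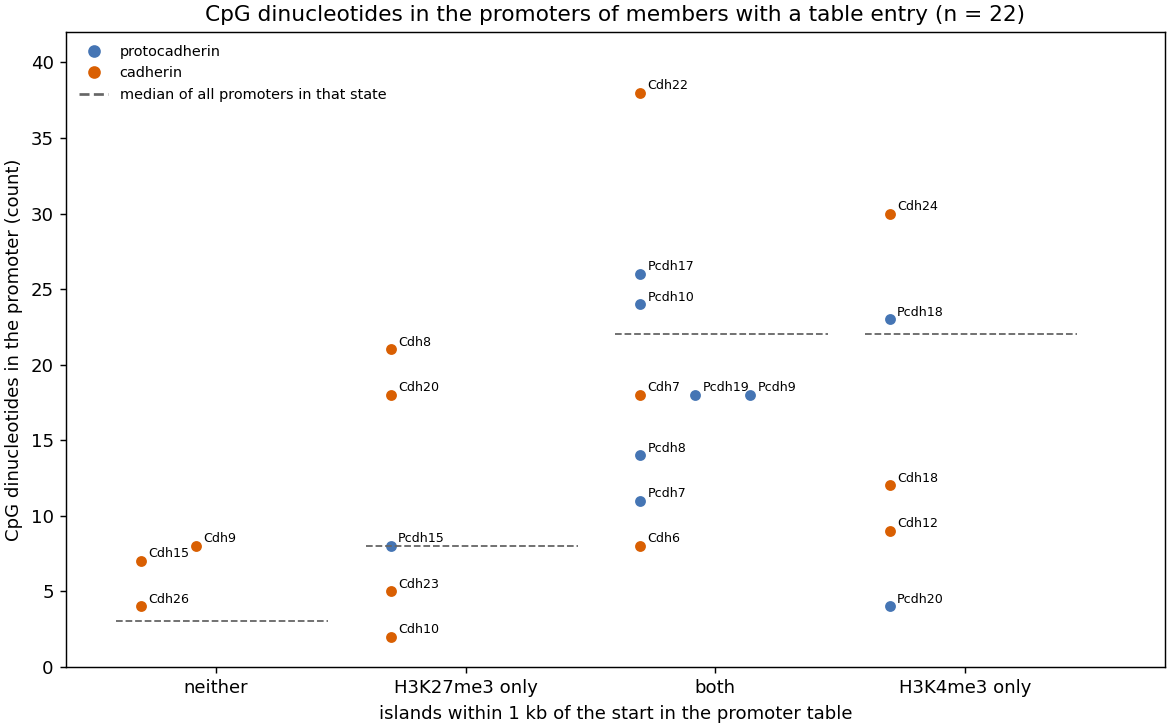
Each point is the promoter of a cadherin or protocadherin with a table entry (22 genes), placed by the islands within 1 kb of its start (x axis) and its count of CpG dinucleotides from 250 bases before to 50 after the start (y axis). Dashed lines are medians of all promoters in the same state, 3, 8, 22 and 22 from left to right, and Cdh22 has the highest count at 38.

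The classes were marked to different extents. Among the 12 other protocadherins, 10 carried H3K4me3 at an end (83.3%, against 58.9% of all protein-coding genes), 10 carried H3K27me3 (83.3%, against 22.4%) and 8 carried both (66.7%, against 16.8%). No other protocadherin lacked both marks, against 35.4% of all genes. Of the 23 cadherins, 9 carried H3K4me3 (39.1%), 13 H3K27me3 (56.5%), 8 both (34.8%) and 9 neither (39.1%). The clustered genes counted 22 with H3K4me3 (38.6%), 4 with H3K27me3 (7.02%), 3 with both (5.26%) and 34 with neither (59.6%). For the clusters this count of H3K4me3 misleads: 21 of the 22 genes share their last exons, and a single island there marks them all. At starts that are not shared, 5 of 57 clustered genes carried H3K4me3 (8.77%) and 4 carried H3K27me3 (7.02%). Among all genes with a known strand, 57.1% carried H3K4me3 and 18.7% H3K27me3 at the start.

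**Figure D2:**
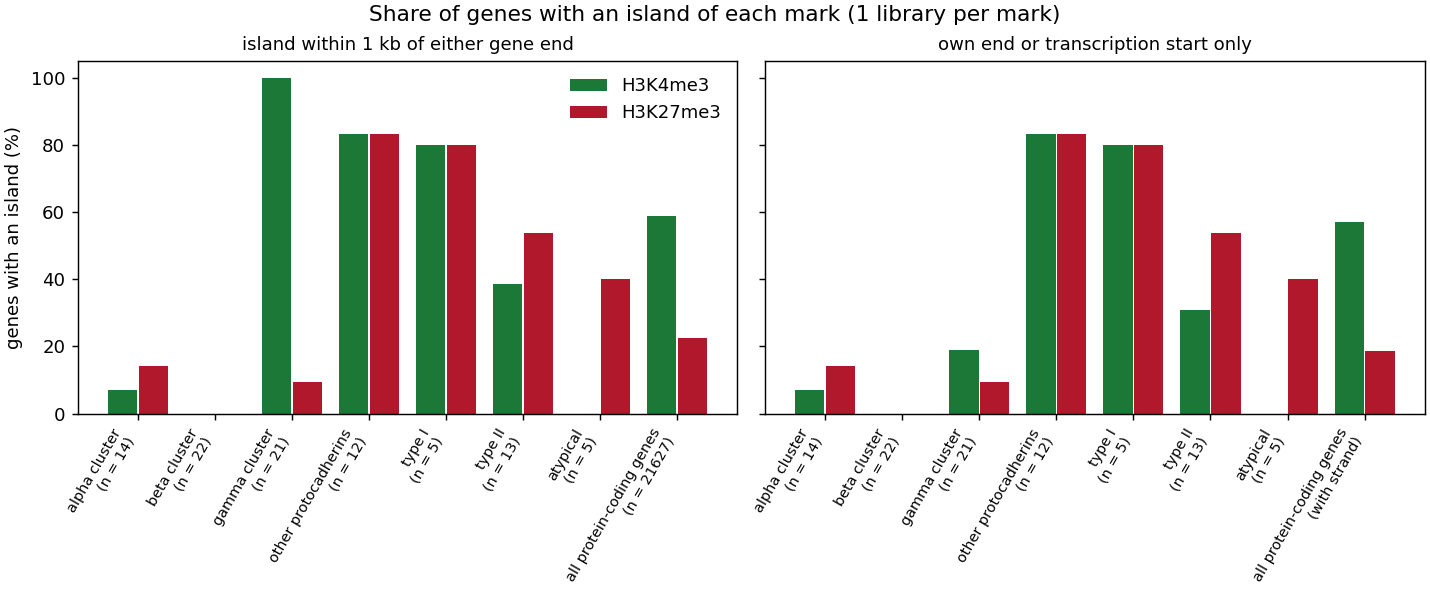
Bars give the percentage of genes (y axis) with an H3K4me3 or H3K27me3 island, by class (x axis), counting islands within 1 kb of either gene end on the left and only an end that cluster members do not share, or the transcription start where its strand is known, on the right. Members outside the clusters without a known strand, Cdh1, Cdh2, Cdh3 and Cdh4 among them, count at both ends there too. The right bar of all genes holds only genes with a known strand, at their starts. The bar of the gamma cluster falls from 100% to 19.0% for H3K4me3, and the beta cluster has no bar in either panel.

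The Pcdha cluster spanned 259 kb of chromosome 18 (36930285 to 37188897) and held 4 islands, 2 of each mark. The 12 variable genes Pcdha1 to Pcdha12 had no island at their starts, and the first 160 kb of the cluster, which hold all of these starts, held none of either mark. The marks appeared at the C-type genes. Pcdhac1 carried H3K27me3 only, an island of 2.2 kb with a height of 13, which is above 55.0% of all H3K27me3 islands (ties count for 50% in such ranks). Pcdhac2 carried both marks: 3.2 kb of H3K4me3 (37142601 to 37145799, height 71, above 41.4% of H3K4me3 islands) inside 8.8 kb of H3K27me3 (37139001 to 37147799, height 29, above 82.3%). The remaining H3K4me3 island, 2.4 kb wide and 23 high, had its summit 34.9 kb after the start of Pcdhac2, inside the gene and at no member's start or end.

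The Pcdhb cluster was bare. None of its 22 genes had an island of either mark at an end or inside, over 256 kb (37264998 to 37521419). All of them lie in a stretch of 464 kb without an island (37179200 to 37642800), the longest in the 3 clusters. Beyond it lay the islands at Taf7, a general transcription factor gene between the Pcdhb and Pcdhg clusters, with an H3K4me3 island of 2.0 kb (height 92) and an H3K27me3 island of 6.4 kb (height 9). Islands were thus called on both sides of the bare stretch. How well reads map to these similar genes was not tested.

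The Pcdhg cluster spanned 180 kb (37661775 to 37841873) and held 5 islands of H3K4me3 and 2 of H3K27me3. The highest stood at the C-type gene Pcdhgc3, where H3K4me3 was 5.2 kb wide and 107 high, above 57.9% of H3K4me3 islands, with its summit 0.054 kb from the start. No H3K27me3 was called there. Pcdhgc4 carried 3.0 kb of H3K4me3 with a height of 37 and Pcdhgc5, the last of the cluster, had no island at its start. C-type starts thus held the highest H3K4me3 summits of both the Pcdha and the Pcdhg cluster. An island of either mark lay at the start of 4 of the 5 C-type genes. Most genes have one: over all genes, 37.2% had neither mark at the start, or at either end where the strand was unknown.

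Among the 18 variable Pcdhg genes, 4 had an island at their own start, each of a single mark. Of all Pcdhg genes, 71.4% had neither mark at their own start. Over all genes this was 37.2%, counted at the start or, where the strand was unknown, at both ends. H3K4me3 at Pcdhga7 was 1.8 kb wide and 9 high, above 1.65% of H3K4me3 islands. At Pcdhgb7 it was 0.6 kb wide and 25 high. The latter is above 18.1% of H3K4me3 islands. H3K27me3 of 3.2 kb (height 10) came within 1 kb of the start of Pcdhgb6, and 3.4 kb (height 15) of that of Pcdhga11. The summits of these H3K27me3 islands lay farther off, 2738 and 1197 bp from the starts. No variable gene had both marks at its own start. The island at the shared end, 3.0 kb wide and 21 high (37841001 to 37843999), also reached the annotated end of the neighbouring gene Diaph1 and of 3 gene models, Gm37013, Gm38666 and Gm38667, that span from the Pcdha to the Pcdhg cluster. It is above 15.0% of H3K4me3 islands. To which of these genes it belongs cannot be told from the files.

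**Figure D3:**
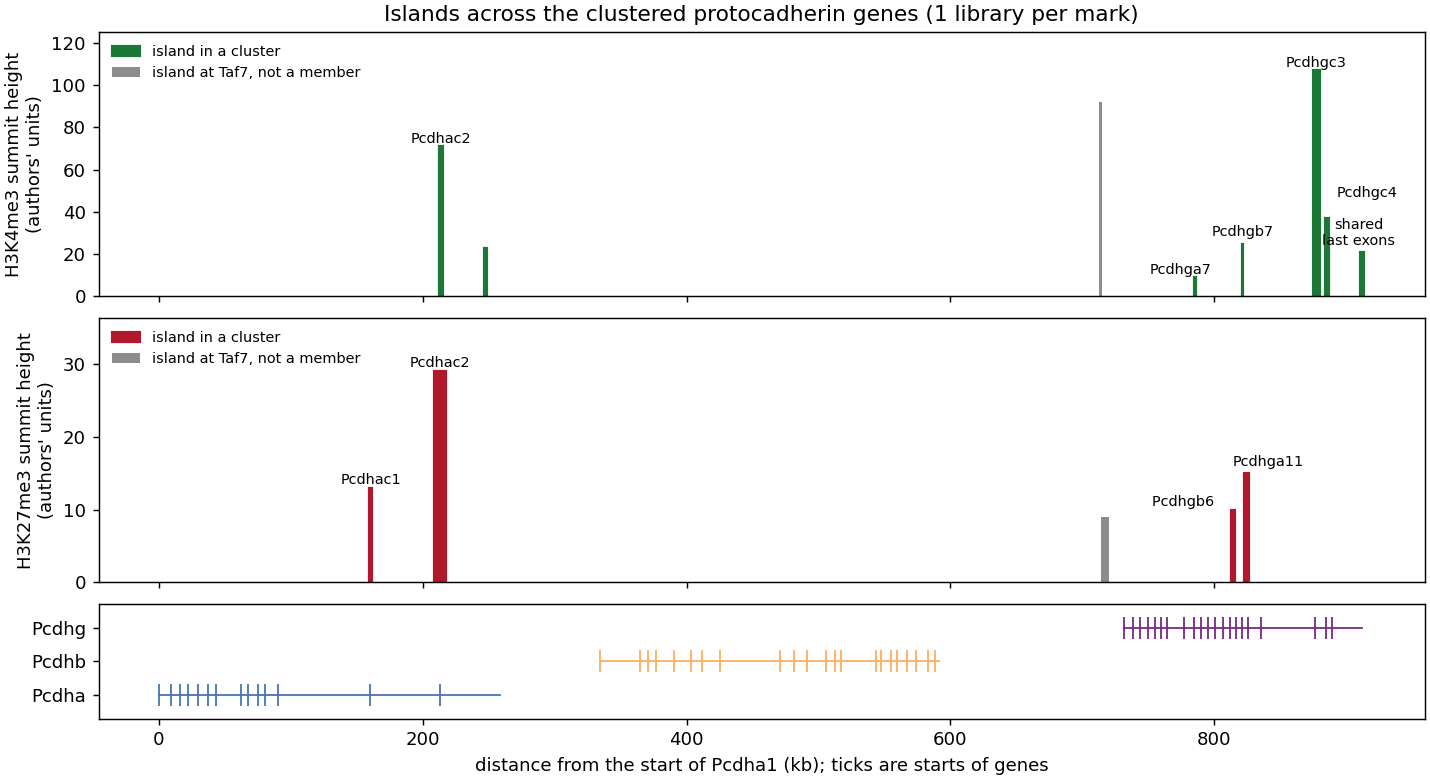
The upper panels show each H3K4me3 and H3K27me3 island across the Pcdha, Pcdhb and Pcdhg clusters as a bar at its distance from the start of Pcdha1 (x axis, kb), as high as its summit (y axis, authors' units, not comparable between marks), with bar outlines added so that narrow islands can be seen. Ticks in the lowest panel are gene starts. The bars of Pcdhgc3 (107) and Pcdhac2 (71) are the highest of the clusters for H3K4me3, and none lies over Pcdhb.

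Counted over the whole gene instead of its ends, all 14 Pcdha genes and all 21 Pcdhg genes carried H3K4me3 and all 14 and 17 carried H3K27me3. Each variable gene reaches over the starts of the genes that follow it in the cluster. These are the same few islands counted again, 7 for H3K4me3 and 4 for H3K27me3, and the share of all genes on that count was 62.7% for H3K4me3 and 25.2% for H3K27me3.

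Protocadherins outside the clusters carried H3K27me3 with high summits and H3K4me3 with low ones. The 10 H3K27me3 islands had a median height of 49 (12 to 86), against 23 over all genes with that mark, and a median width of 11.3 kb against 8.4 kb. The 10 genes with H3K4me3 had a median height of 41 (13 to 67), against 112 over all genes with that mark. Of these 10 genes 8 carried both marks, and over all genes with both marks the median was 66. Their H3K4me3 was broad, with a median width of 6.5 kb against 4.2 kb. When only the 50% of islands with the higher summits were kept for each mark (down to heights of 90 for H3K4me3 and 12 for H3K27me3), none of the class kept H3K4me3, where 37.2% of all genes have it. All 10 kept H3K27me3, where 17.3% of all genes have it. Pcdh9, at a height of 12, was kept by position among 755 H3K27me3 islands tied there, of which 303 were kept, and 9 genes lay above that height.

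Pcdh17, Pcdh8 and Pcdh10 had the highest H3K27me3 summits of the class after Pcdh1. Pcdh17 lay under 12 kb of H3K27me3 (height 82) that enclosed 6.4 kb of H3K4me3 (height 26, summit 21 bp from the start). Pcdh8, a paraxial mesoderm protocadherin and a short gene of 4.54 kb, was wholly under 19.2 kb of H3K27me3 (height 80), with 4.6 kb of H3K4me3 (height 21). At Pcdh10, 11 kb of H3K27me3 (height 77) enclosed 7.4 kb of H3K4me3 (height 67, the highest of this class). In these 3 genes the H3K4me3 island lay entirely inside the H3K27me3 island.

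Pcdh1, known from airway epithelium, had H3K4me3 islands at both ends (6.8 kb with height 41, and 3.6 kb with height 39). H3K27me3 of 16.6 kb lay at the end with the higher coordinate, where its height of 86 was above 98.9% of H3K27me3 islands and the highest of all members at their ends. At Pcdh7 an H3K4me3 island of 6.6 kb (height 62) met an H3K27me3 island of 10.6 kb (height 48), and at Pcdh9 the islands were 6.4 kb (height 41) and 7.6 kb (height 12). The islands of Pcdh7 and Pcdh9 were offset, with 90.9% and 71.9% of the H3K4me3 island covered. On the X chromosome, Pcdh19, a gene of early epilepsy in females, carried 6.6 kb of H3K4me3 (height 59) inside 14.2 kb of H3K27me3 (height 30). Pcdh11x carried 2.0 kb (height 13) inside 8.8 kb (height 22). Its H3K4me3 summit is the lowest of the class, above 6.40% of islands.

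The other 4 genes of the class carried a single mark at their ends. Pcdh18 had 8.0 kb of H3K4me3 (height 65) and Pcdh20 3.6 kb (height 27), with no H3K27me3 anywhere in either gene. Pcdh12, a protocadherin of endothelium and trophoblast, had 8.2 kb of H3K27me3 (height 17) and no H3K4me3. Pcdh15, which with Cdh23 builds the tip links of hair cells, had 11.6 kb of H3K27me3 at its outer start (height 50) and a 2.2 kb H3K4me3 island (height 34) under it, too far inside the gene to count at the end. Its promoter in the RefSeq table lies 726 kb within the gene, and there a second H3K27me3 island of 4.8 kb (height 9) was called.

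Type I cadherins divided by the balance of their marks. Cdh1, Cdh2, Cdh3 and Cdh4 each carried both marks at the same end, and in each the H3K4me3 island lay entirely inside H3K27me3. Cdh2 had the high H3K4me3 summit of the 4, at 133 (4.6 kb, above 71.2% of H3K4me3 islands), and a faint H3K27me3 island of 7.6 kb with a height of 8, above 9.69% of H3K27me3 islands. Cdh1 had 3.6 kb of H3K4me3 at a height of 46 (chr8:106602601-106606199) and 12 kb of H3K27me3 at a height of 47, above 91.0%. Cdh3 (P-cadherin), the neighbour of Cdh1 on the chromosome, had 5.6 kb at 46 and 11.6 kb at 50. Cdh4 (R-cadherin) had 2.8 kb at 59 and 13 kb at 66, above 96.3%. So the epithelial and retinal cadherins stood together, with H3K27me3 heights of 47 to 66 and H3K4me3 heights of 46 to 59, apart from Cdh2 with 8 and 133. Cdh15 (M-cadherin of muscle) had no island of either mark anywhere in the gene.

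The mesenchymal cadherin Cdh11 resembled Cdh2 among the type II genes. It had the highest and widest H3K4me3 island of all members at their ends, 8.8 kb with a height of 163 (chr8:102780201-102788999, above 85.4% of H3K4me3 islands). H3K27me3 there was 8.0 kb wide and 8 high, and covered 84.1% of the H3K4me3 island. Cdh22, a cadherin of brain and pituitary, came next with 4.8 kb of H3K4me3 at a height of 146. Its start also lay under 17 kb of H3K27me3 with a height of 17, and its far end under a further 24 kb with a height of 30. Cdh24 carried 6.8 kb of H3K4me3 at a height of 98 and no H3K27me3. That island lies where the neighbouring gene Acin1 also ends, so it cannot be assigned to Cdh24 alone. These were the members above 90, the median height of all H3K4me3 islands, together with Cdh2 and Pcdhgc3.

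Other type II genes leaned to H3K27me3 or had no mark. At Cdh8, H3K27me3 was 12 kb wide and 41 high, and at Cdh20 12.8 kb and 37, and neither start had H3K4me3. The H3K4me3 of Cdh20 lay at its far end, 1.2 kb wide and 16 high, inside a second H3K27me3 island of 3.2 kb with a height of 13. Cdh7 carried low islands of both marks at its start, 2.8 kb of H3K4me3 (height 20) within 4.4 kb of H3K27me3 (height 15). Cdh10 carried 4.4 kb of H3K27me3 at a height of 10. Most of these cadherins are known from neurons or neural crest. Cdh5 of endothelium, Cdh19 of early glia and Cdh9 had no island of either mark anywhere in the gene.

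At 3 type II genes the outer annotated end hid an island at the start given by the RefSeq promoter table. Cdh6, a kidney and neural crest cadherin, has its table start 2.73 kb inside the outer end, and 4.0 kb of H3K4me3 with a height of 57 lay there inside 8.8 kb of H3K27me3 with a height of 12. At Cdh12 and Cdh18 the table start is 663 and 488 kb inside the gene, and narrow, low H3K4me3 islands were called there (1.0 kb with height 13, and 2.0 kb with height 11). Counted at table starts, H3K4me3 was present at 6 of the 13 cadherins with an entry (46.2%) and at 8 of the 9 protocadherins (88.9%). Over all table starts the share was 58.4%. Of all 22 members, 4 changed state between gene ends and table start, the fourth being Cdh20.

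None of the 5 atypical cadherins carried H3K4me3 at an end, where 58.9% of all genes did. Cdh13 (T-cadherin, anchored to the membrane by a lipid) and Cdh23 of hair cells carried H3K27me3 (40%, against 22.4% of all genes). Both genes had end islands, 5.0 and 5.2 kb wide and each 9 high. Their larger islands lay inside. In Cdh13, a gene of 1180 kb, 15 H3K27me3 islands inside summed to 203 kb, the widest 50.8 kb and the highest 39, and a single H3K4me3 island of 2.8 kb reached 27. In Cdh23, 7 inside islands summed to 52.6 kb and reached 80, next to 2 of H3K4me3 that reached 23 and 47. Cdh4 had the same kind of scatter, with 15 inside islands of H3K27me3 that summed to 120 kb and were 6 to 19 high. By contrast Cdh16 of kidney, Cdh17 of intestine and Cdh26 had no island of either mark.

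**Figure D4:**
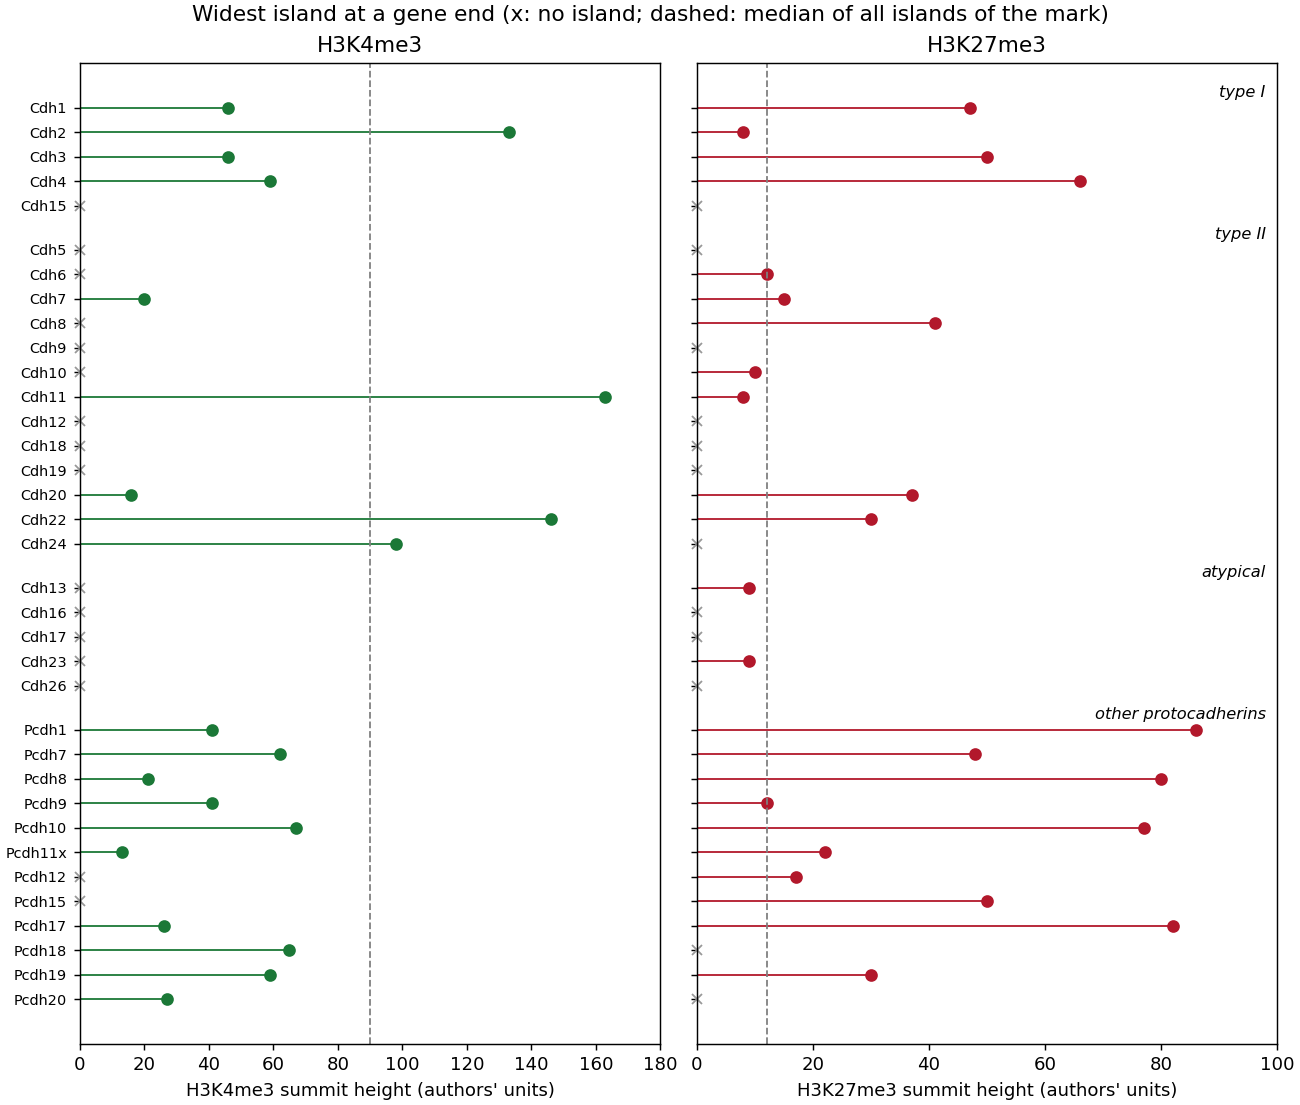
Points give the summit height (x axis, authors' units, not comparable between panels) of the widest H3K4me3 and H3K27me3 island within 1 kb of an annotated end for the 35 cadherins and protocadherins outside the clusters (y axis), with crosses for no island and a dashed line at the median of all islands of the mark (90 and 12). Cdh11, Cdh22, Cdh2 and Cdh24 lie right of the line for H3K4me3, and 16 genes do so for H3K27me3.

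Across the 35 members outside the clusters, 16 carried both marks (45.7%, against 16.8% of all genes). In 12 of these the H3K4me3 island was entirely inside H3K27me3, and in all 16 they shared sequence somewhere. The genes with no island anywhere numbered 7 (20%, against 31.8% of all genes). All were cadherins, of which they made up 30.4%, near the share of all genes. The median H3K4me3 height of these members was 46, against 112 over all genes with the mark, and the median H3K27me3 height 30 against 23. Genes that carry both marks had a lower median H3K4me3 height in general, 66 over all genes and 46 over these 16 members. Of the 13 cadherins with H3K27me3, 6 had heights above 23 and 7 below it (median 15), and of the 10 protocadherins 7 lay above and 3 below (median 49). In the higher-summit set, 1 member carried both marks, Cdh22, where 4.50% of all genes do. Low islands thus decide how many members count as carrying both marks.

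Genes whose products work with cadherins were counted at their ends in the same way. Of 10 genes of catenins and their relatives, which bind the cytoplasmic part of cadherins or link it to actin, 9 carried H3K4me3 (90%, against 58.9% of all genes) with a median height of 149 against 112. H3K4me3 alone was found at 6 of the 10, against 42.1% of all genes, and both marks at 3, against 16.8%. Ctnnb1 (8.4 kb, height 154), Jup (5.4 kb, 89), Ctnna1 (4.0 kb, 149) and Ctnna3 (4.4 kb, 206) had H3K4me3 only at their ends, whereas Ctnna2 and Ctnnd2, known from neurons, and Arvcf had both. Ctnnd1 had no island at an end but an H3K4me3 island inside. All 6 genes of known Cdh1 repressors carried H3K4me3, as 58.9% of all genes did, with heights of 98 to 174. It stood alone at Snai1, Snai2, Zeb1 and Zeb2, and Twist1 and Twist2 also had H3K27me3 of 23.8 kb (height 24) and 12.8 kb (height 14), a mark at 22.4% of all genes.

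Large cadherins of planar cell polarity carried H3K4me3 apart from Fat2. On the Fat and Dachsous list H3K4me3 lay at 6 of 7 genes (85.7%, against 58.9% of all genes) and both marks at 2 (28.6%, against 16.8%). Fat1 (7.2 kb, height 132), Fat4 (6.4 kb, 171), Dchs1 (4.6 kb, 167) and Dchs2 (3.8 kb, 28) had H3K4me3 only at their ends, and Fat3 and the regulator gene Fjx1 had both marks. Celsr1, Celsr2 and Celsr3 all carried both, as 16.8% of all genes did, with H3K27me3 heights of 30, 16 and 62. Desmosomal cadherins, the adhesion proteins of stratified epithelia, lacked both marks at 7 of 9 genes, Dsc1, Dsc3, Dsg1a and Dsg1b among them (77.8%, against 35.4% of all genes), while Dsc2 and Dsg2 carried both. Among 5 cadherin-related Cdhr genes none had H3K4me3, against 58.9% of all genes. Cdhr1 and Cdhr2 had H3K27me3 (8.8 and 38 kb), a mark at 40% of this list and 22.4% of all genes. Cdhr3, Cdhr4 and Cdhr5 had neither at their ends (60%, against 35.4%). Of 3 calsyntenin genes, Clstn1 and Clstn2 carried both marks (66.7%, against 16.8% of all genes) and Clstn3 H3K4me3 only.

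Genes of factors that act on the protocadherin clusters carried H3K4me3 at 8 of 11 (72.7%, near the 58.9% of all genes), with a median height of 164 against 112. Ctcf, whose protein binds clustered promoters, had 5.0 kb at a height of 183, and the cohesin genes Smc3 (height 224) and Stag2 (height 82) and the cohesin release gene Wapl (height 167) also had H3K4me3 only. Smc1a, on the X chromosome, had both marks. Rad21, Stag1 and Nipbl had no island at an end and 1 H3K4me3 island each inside the gene. At such genes, as at Cdh6, the annotated outer end and the place of the mark differ.

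Markers of the cell types that the sort could hold were counted the same way. All 12 genes of dental mesenchyme, Msx1, Pax9 and Col1a1 among them, carried H3K4me3, against 58.9% of all genes. Their median height of 114 (33 to 205) lay near the 112 of all genes with the mark. H3K27me3 lay at 9 of them as well, so 75% carried both marks, against 16.8% of all genes. H3K4me3 lay at 6 of 9 epithelial genes (none at Krt5, Trp63 or Cldn4), 4 of 8 endothelial genes (none at Pecam1, Tek, Tie1 or Emcn), 3 of 8 nerve and glia genes and 2 of 6 blood genes. The first 2 of these shares, 66.7% and 50%, lie near the 58.9% of all genes. Median H3K4me3 heights on these lists were 21, 27, 69 and 41, in that order, against 112 over all genes with the mark. H3K27me3 lay at 6 of 9, 4 of 8, 7 of 8 and 0 of 6 of them, against 22.4% of all genes. Cdh1 and Cdh3 had low H3K4me3, as did epithelial genes such as Epcam (58), Grhl2 (19) and Esrp1 (16), which also carry H3K27me3. Other genes of that list differed. Krt14 had H3K4me3 (8) without H3K27me3, Cldn4 had H3K27me3 only, and Krt5 and Trp63 had neither mark. The part of epithelial cells in the marks at Cdh1 and Cdh3 was not tested. A mixture of cells with 1 mark each and cells with both marks on the same allele cannot be told apart in these libraries.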

How the data were processed

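Per the submitters' processing notes, reads were handled with BWA, an aligner, and SICER, which joins enriched windows into islands, on mouse build mm10. Versions, settings and how reads that map to several places were treated were not given in the sources used here. Islands were called without an input library, per the labels. Per the file headers, the authors deposited a summit track and an interval track for each mark, and summit heights are a score in whole numbers whose scaling between libraries is not stated, so heights were ranked within a mark only. Island widths were all 1 bp short of a multiple of 200 bp. The files hold 14361 H3K4me3 and 11341 H3K27me3 islands and no read counts, so depth and detection limits are unknown.

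Gene positions (21627 protein-coding genes, 1 start and 1 end each) and promoter sequences came from RefSeq tables of GRCm38.p6. Overlap of at least 1 bp was counted with Python 3.11.15 and pandas 2.3.3, and the overlap code was tested on made-up islands with known answers. Positions are 1-based. Ends of cluster members within 2 kb of the same end of another member of the cluster were treated as shared. Exact binomial (Clopper-Pearson) 95% intervals, which cover counting over genes only, served to judge alternatives. No p-value was computed. The members and lists were chosen with earlier results of these data known. The text names every cadherin and unclustered protocadherin, the C-type genes, variable genes with an island at their own start and up to 4 genes per partner list and state.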

Additional observations from a re-analysis of the deposited data

How the results depend on the processing

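Each class's shares with H3K4me3, with H3K27me3 and with both marks were recomputed with other windows, overlaps, islands and genes. Of 96 values, 77 stayed within the 95% interval of the share reported and 19 left it. Some of the 77 could not move, so their number does not measure robustness. The intervals treat genes as independent. Clustered genes share islands, 1 of them at the ends of 21 genes, so the intervals of that class do not measure spread. Only the other protocadherins have genes on the X chromosome. The H3K4me3 island at the shared Pcdhg end bears only on the H3K4me3 and both-mark shares of the clustered genes. For clustered protocadherins, H3K4me3 (38.6%) fell to 8.77% at ends that are not shared and, in an alternative chosen after seeing the data, without the island at the shared Pcdhg end. It was 3.03% among members with no other protein-coding gene at their ends, 61.4% anywhere in the gene and 1.75% in the higher-summit set. Anywhere in the gene, their H3K27me3 and their both-mark shares were 54.4% each, and both marks were at 0% in the higher-summit set. In that set, other protocadherins had H3K4me3 and both marks at 0%, and cadherins at 17.4% and 4.35%. Islands tied at the lowest height of that set were split by position. With all tied islands left out, an alternative added after seeing the data, these shares and those of the clustered genes for H3K4me3 (1.75%) and both marks (0%) were the same, and H3K27me3 was at 30.4% of cadherins (56.5% with all islands) and 75% of other protocadherins. Windows of 500 bp and 2.5 kb and windows covered to 50% moved no share out of its interval. Nor did autosomes only, which dropped genes from the other protocadherins alone. Starts of the promoter table, added later, did not either (no clustered gene has an entry there). No paired analysis was possible because each mark has 1 library. Unknown depth and repeats limit the reading of genes without an island.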
